A study of Mus musculus with 48 samples.

Results

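The genes described are Cpeb3, Cpeb4, Nanos1, Pum2 and Tob1, which encode RNA-binding proteins and an adaptor that bring the deadenylase CNOT7 to transcripts. They were taken by symbol from the gene column of the count table and are 5 of its 26899 genes. CNOT7 shortens poly(A) tails as a catalytic subunit of the CCR4-NOT complex and has little sequence preference of its own. CPEB3 and CPEB4 bind the cytoplasmic polyadenylation element (CPE) in 3'UTRs, PUM2 binds sites around the core UGUA, and NANOS1 works with Pumilio proteins on such Nanos response elements (NRE). TOB1 bridges CNOT7 to RNA-binding proteins, CPEB3 among them, and also contacts the poly(A)-binding protein.

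RNA was sequenced from 4T1 cells, a mammary tumor cell line of BALB/cfC3H mice, after RNA immunoprecipitation with the anti-FLAG antibody M2 (RIP), and from an aliquot of lysate kept as the input. The cells were transduced with lentiviral vectors. Vector cells carried the control vector and no FLAG protein, so that their precipitate is background, whereas the 4 other lines carried human FLAG-CNOT7 driven by a murine Pol2 promoter, or the same protein with D40A (no deadenylase activity), E247A/Y260A (no binding of TOB1) or M141R (no binding of CNOT1). The antibody precipitates the FLAG protein and RNA bound to its complexes, and cells were not crosslinked. The 24 inputs and 24 RIP libraries fall into 10 groups of 5 replicates numbered 6 to 10, except D40A input and D40A RIP, which hold 4 and lack replicate 7. Nothing in the labels says that replicates are separate cultures, so p-values measure only the spread between these samples. The comparisons ask how abundant the adaptor transcripts were in each line, and whether they came down with CNOT7 or its mutants.

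Total counts were 337861 to 826768 in the inputs (median 504681) and 1305627 to 10719137 in the RIP libraries (median 2856012), where 7 gene models each held over 1% of the summed counts. Trimmed mean (TMM) scaling therefore gave factors of 3.86 to 5.54 to the inputs and 0.147 to 0.350 to the RIP libraries, and every CPM value below (counts relative to the scaled library size) is on this scale. Transcripts that all cells use were low in the inputs, with 894 counts for Eef1a1, 298 for Actb and 85 for Gapdh of 12758502 in all. The same holds for epithelial markers of the line, with 413 counts for Krt7, 327 for Epcam, 329 for Cdh1, 47 for Krt8 and 0 for Krt14, beside 128 for the endothelial Pecam1 and 11 for the leukocyte Ptprc. The library kit was directional and the strand used for counting is not given in the sources used here. Of the coding genes, the 21.7% with 100 or more exon bases opposite an exon of the other strand (GENCODE M21) took 68.3% of the coding input counts, with a median of 69 counts a gene against 18 for genes with none. Cpeb3 is in the first class and the other 4 genes are in the second. Whether reads counted for a gene came from its own strand was not tested, and the values below are counts assigned to each gene under that limit.

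Cpeb3 (ENSMUSG00000039652) lies at chr19:37021291-37208601 on the minus strand of GRCm38. Its exons share 116 bases with exons of A330032B11Rik on the opposite strand, which had 277 input counts and 57 RIP counts, against 3134 and 527 for Cpeb3. March5, on the opposite strand across its start without shared exon bases, had 93 input counts. Cpeb4 (ENSMUSG00000020300) lies at chr11:31872211-31935634, Pum2 (ENSMUSG00000020594) at chr12:8674134-8752581 and Tob1 (ENSMUSG00000037573) at chr11:94211454-94215495, all on the plus strand. Nanos1 (ENSMUSG00000072437) lies at chr19:60755987-60759914 on the plus strand, with Eif3a (273 input counts) on the opposite strand 1203 bases away. The deposited counts were made on mm9 according to the submitters' processing notes, and these positions come from the GRCm38 annotation through the gene identifiers.

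Letters of the CPE, the NRE core and 1 further site also occur in the annotated 3'UTRs of these 5 genes. Taking for every gene its longest 3'UTR, searched on the transcript strand with overlapping matches counted, the CPE letters TTTTAT occurred 6 times in Cpeb3, 11 in Cpeb4, 4 in Nanos1, 6 in Pum2 and 1 in Tob1. They occurred at least once in 51.6% of 21130 coding genes. TGTA, the core of the NRE, occurred 27, 40, 19, 45 and 12 times in the same order (86.4% of genes had it), and AATAAA, the site of the cleavage and polyadenylation factor CPSF, occurred 4, 6, 3, 8 and 1 times (78.8%). All 3 were present in all 5 genes and in 44.1% of coding genes. The 3'UTRs measured 3569 bases in Cpeb3, 4102 in Cpeb4, 2845 in Nanos1, 5886 in Pum2 and 767 in Tob1, against a median of 1085 over the coding genes, so that all but that of Tob1 were long. The CPE nearest to the transcript end is shown for each, because it is the element that CPEB3 and CPEB4 are named for. Windows of 30 bases are given 5' to 3' on the transcript strand, in DNA letters, with the CPE in capitals.
Cpeb3, chr19:37021506-37021535, minus strand: ggaataaattaaTTTTATgatgctaattct
Cpeb4, chr11:31935406-31935435, plus strand: gggtaattcattTTTTATtaaagtcatttt
Nanos1, chr19:60759781-60759810, plus strand: caaacttgctagTTTTATcggctttttact
Pum2, chr12:8751625-8751654, plus strand: tagaagggatttTTTTATtcgaggtctgca
Tob1, chr11:94214995-94215024, plus strand: gctgaattttttTTTTATaaaaaattggca
The match ended 227 bases before the end of the 3'UTR in Cpeb3, 211 in Cpeb4, 116 in Nanos1, 915 in Pum2 and 483 in Tob1. A match to the letters is a description and not a binding site.

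In the inputs, Cpeb3 was by far the best measured of the 5, with 3134 counts over the 24 libraries and none without a count. Pum2 had 179 counts in 23 libraries and Nanos1 149 in 22. Cpeb4 had 26 counts in 14 libraries and Tob1 7 counts in 7. Per kilobase of exon, the mean input level was 7.47 CPM for Cpeb3 ± 3.47 (SD, n = 24), 0.650 ± 0.541 for Nanos1 and 0.417 ± 0.226 for Pum2. It was 0.0676 ± 0.0773 for Cpeb4 and 0.0508 ± 0.0828 for Tob1. Cpeb3 was above Nanos1 in 23 of 24 inputs and Pum2 above Cpeb4 in 22, whereas Nanos1 was above Pum2 in 13 and Cpeb4 above Tob1 in 11, within their spread. In the RIP libraries Cpeb3 had 527 counts and was present in 24 of 24, Pum2 had 33 counts in 13, Cpeb4 23 in 9, Nanos1 5 in 5 and Tob1 2 in 2. Per kilobase, the mean RIP level was 4.47 CPM for Cpeb3 and 0.0317 to 0.243 for the other 4.

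Cpeb3 input counts of vector cells in replicates 6 to 10 were 212, 138, 148, 122 and 88. The CNOT7 inputs held 161, 140, 144, 57 and 8 Cpeb3 counts. The D40A inputs held 204, 128, 74 and 38. All of these ranges overlap, and the CNOT7 input of replicate 10 had the fewest Cpeb3 counts of any input. The E247A/Y260A inputs held 185, 152, 117, 71 and 86 Cpeb3 counts, and the M141R inputs 301, 165, 149, 126 and 120. Scaled, mean Cpeb3 levels were 67.4 CPM ± 30.8 (SD, n = 5) in M141R, 59.5 ± 26.2 (n = 5) in vector, 54.8 ± 29.9 (n = 4) in D40A, 49.0 ± 15.8 (n = 5) in E247A/Y260A and 45.9 ± 29.8 (n = 5) in CNOT7 cells. No neighbours in that order differed by more than their spread.

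Set against vector input, no adaptor gene passed the test in cells with CNOT7 or a mutant. Cpeb3 differed on the log2 scale by −0.37 (95% interval −1.23 to 0.49) in CNOT7, −0.11 (−1.03 to 0.80) in D40A, −0.28 (−1.14 to 0.58) in E247A/Y260A and 0.18 (−0.68 to 1.04) in M141R cells. Pum2 was −0.81 (−2.04 to 0.42), −0.67 (−1.99 to 0.65), −0.27 (−1.46 to 0.91) and −0.47 (−1.66 to 0.72) in the same order. Nanos1 was 0.58 (−0.78 to 1.95), −0.08 (−1.59 to 1.43), 0.17 (−1.19 to 1.53) and 0.31 (−1.02 to 1.64). By edgeR's quasi-likelihood test, 0 of 6931 genes (0%) were called in each of the 4 comparisons, and 54, 60, 27 and 37 genes had an unadjusted p under 0.05. None of the 3 adaptor genes past the filter was among the latter or among the genes called by DESeq2, which were 4 in M141R and 0 in the 3 other lines. With no filter on low counts, edgeR called 44 of 26899 genes in CNOT7, 2 in M141R and 0 in the other lines, no adaptor gene among them. Set against the vector input of the same replicate number, Cpeb3 was lower in 5 of 5 CNOT7, 4 of 4 D40A, 3 of 5 E247A/Y260A and 2 of 5 M141R inputs, and Pum2 in 5 of 5, 3 of 4, 3 of 5 and 4 of 5. With the replicate number as a block over all libraries, Cpeb3 was −0.48 ± 0.26 (SE) in CNOT7 and −0.18 ± 0.28 in D40A cells and Pum2 −0.87 ± 0.50 in CNOT7 cells, none of them called (edgeR adjusted p = 1.00). The intervals above come from the fit without that block, and in bulk RNA a change in the share of cells with a transcript and a change per cell cannot be told apart.

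**Figure D1:**
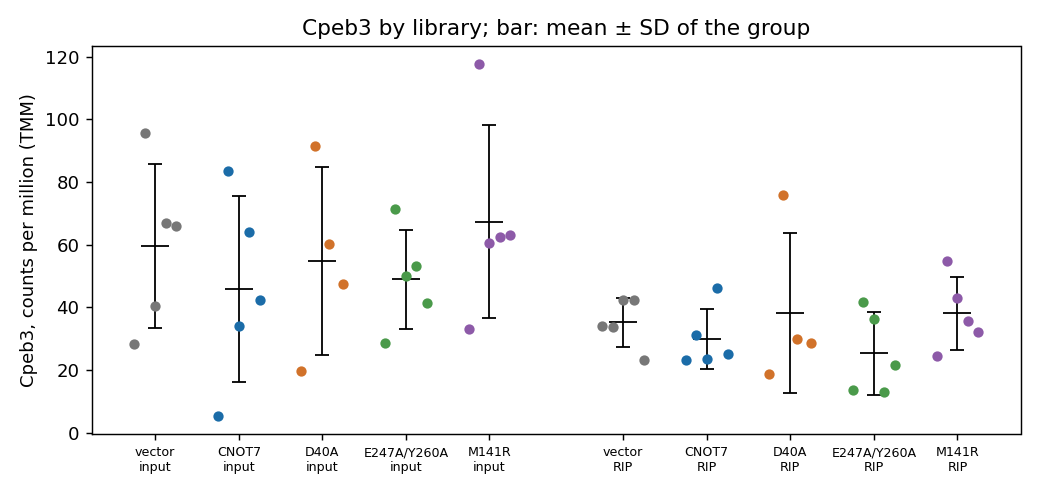
Cpeb3 in CPM after TMM scaling (vertical axis) in each library of the 10 groups, with black bars at the group mean ± SD. RIP means (25.3 to 38.4) lie below input means (45.9 to 67.4), and the libraries of all 5 constructs overlap within each kind.

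Cpeb3 was present in every precipitate, including that of cells without a FLAG protein. The vector RIP libraries of replicates 6 to 10 held 19, 28, 20, 13 and 18 Cpeb3 counts. The CNOT7 RIP libraries held 22, 15, 26, 13 and 11 and the D40A RIP libraries 56, 17, 62 and 7. The E247A/Y260A RIP libraries held 31, 23, 5, 17 and 6 Cpeb3 counts, and the M141R RIP libraries 41, 25, 15, 26 and 11. No construct stands apart from the vector in these counts. Mean Cpeb3 levels in the RIP were 38.4 CPM ± 25.5 (SD, n = 4) in D40A, 38.1 ± 11.6 (n = 5) in M141R, 35.2 ± 7.95 (n = 5) in vector, 29.9 ± 9.64 (n = 5) in CNOT7 and 25.3 ± 13.2 (n = 5) in E247A/Y260A cells. Within a lysate, Cpeb3 was lower in the precipitate in 21 of 24 pairs, and the 3 exceptions were 2 vector lysates and 1 CNOT7 lysate.

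As a log2 ratio of RIP over input, Cpeb3 was −0.75 ± 0.45 (SE) in vector, −0.62 ± 0.45 in CNOT7, −0.50 ± 0.50 in D40A, −0.92 ± 0.46 in E247A/Y260A and −0.81 ± 0.45 in M141R cells. The adjusted p-values of edgeR's quasi-likelihood test were 0.260, 0.380, 0.587, 0.183 and 0.211, so that Cpeb3 was called in no construct. Of the 6931 genes, 12.7% were called in vector, 11.3% in CNOT7, 6.81% in D40A, 10.9% in E247A/Y260A and 14.8% in M141R cells. Those called higher made up 0.75%, 0.707%, 1.27%, 1.07% and 2.84% in that order, and the others were lower. DESeq2, whose size factors rest on 1092 genes, split its calls otherwise, with 184 genes higher and 226 lower in vector, 259 and 235 in CNOT7, 198 and 152 in D40A, 284 and 192 in E247A/Y260A, and 553 and 193 in M141R cells. The median over all 6931 genes tested was −0.85, −0.78, −0.37, −0.62 and −0.64, close to the Cpeb3 values. With lysate as a block, added after the data were seen because RIP and input come from one lysate, Cpeb3 was lower in the RIP of E247A/Y260A cells (−0.97 ± 0.33, adjusted p = 0.0354), and adjusted p-values in the 4 other constructs were 0.0743 to 0.430. That block called 1005 of the 6931 genes lower in E247A/Y260A cells, against 684 without it. With the replicate number as a block over all libraries, also added, Cpeb3 was called lower in E247A/Y260A (adjusted p = 0.0185) and in M141R (adjusted p = 0.0376), where 1321 and 1440 of the 6931 genes were called lower. The ratio itself depended on how precipitates and inputs were scaled: with DESeq2's size factors Cpeb3 was 0.19 in CNOT7, 0.12 in D40A and 0.04 in M141R, opposite in sign to the TMM values, and −0.08 in vector and −0.18 in E247A/Y260A cells. With library size alone all genes shifted, to medians of −5.24 to −4.60, and Cpeb3 lay at −5.34 to −4.91 and was called in all 5 constructs.

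**Figure D2:**
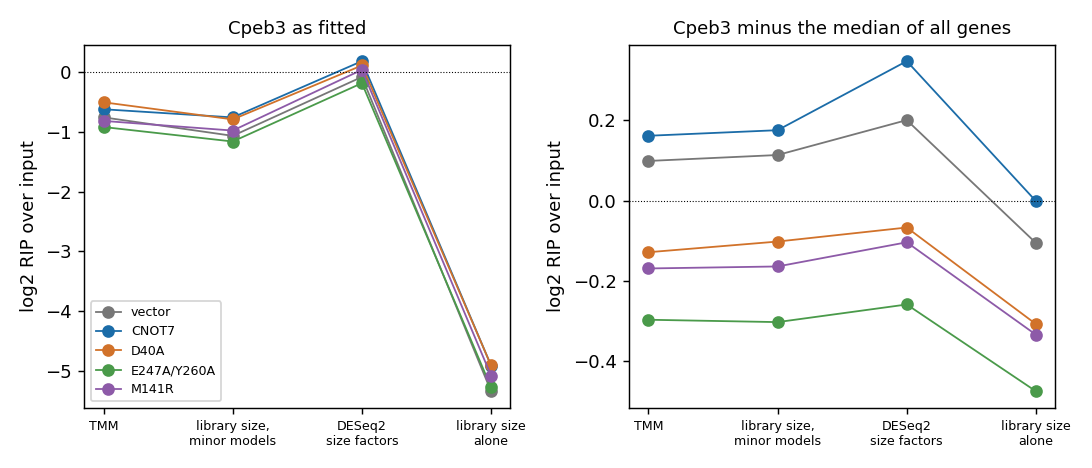
Log2 RIP over input of Cpeb3 under 4 scalings (horizontal axis), as fitted (left) and minus the median of all genes tested under the same scaling (right), with one colour a construct. The fitted ratio ran from −5.34 to 0.19, whereas the distance to the median stayed within −0.47 and 0.35.

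Relative to the median of all genes, Cpeb3 under TMM was 0.10 higher in vector, 0.16 higher in CNOT7, and −0.13, −0.30 and −0.17 in D40A, E247A/Y260A and M141R cells. These distances are within 1 SE of the ratios. In vector cells the sign turned with library size alone (−0.11), and in CNOT7 cells the distance was then −0.00095.

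Nanos1 had counts in 22 of 24 inputs and almost none in the precipitates. In replicates 6 to 10 the CNOT7 inputs held 3, 9, 7, 3 and 12 Nanos1 counts and the 5 CNOT7 RIP libraries held 0. The E247A/Y260A inputs held 0, 4, 10, 3 and 14 and their RIP libraries 0. The M141R inputs held 2, 6, 3, 3 and 26 Nanos1 counts and their RIP libraries 1 in replicate 7. The groups do not overlap in CNOT7 cells. In E247A/Y260A cells the lowest input reaches the RIP values, and in M141R cells it does so in scaled values (0.783 CPM against 1.73) but not in counts. The D40A inputs held 0, 5, 1 and 10 Nanos1 counts and their RIP libraries 1 in replicate 9. The vector inputs held 1, 3, 5, 5 and 14 and 3 of their RIP libraries 1 each.

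In CNOT7 cells Nanos1 was lower in the precipitate than in its input, by edgeR's quasi-likelihood test with an adjusted p of 0.0339, the only call among the 3 adaptor genes past the filter in any construct. In that comparison 10.6% of 6931 genes were called lower. The summed counts were 34 in the input and 0 in the RIP, and against the limit of 3 counts over the group, Nanos1 was at least 2.95-fold lower. Had the RIP held Nanos1 at its input level, 8.84 counts would have been its share. The median of all genes was itself −0.78 on the log2 scale there, and with DESeq2's size factors, tried after the data were seen, the limit was at least 1.83-fold lower and the share 5.50 counts. Nanos1 passed the filter through the inputs, where it is high, and not with the CNOT7 groups alone, so that a call could hardly be of a higher RIP and lends little to the direction. In a single CNOT7 RIP library 3 counts stand for 4.24 to 6.36 CPM, above 4 of the 5 CNOT7 inputs (1.56 to 3.11 CPM, and 7.98 in replicate 10), so that those 4 single libraries cannot show a difference and the limit above rests on the summed counts. Nanos1 was lower in the RIP in 5 of 5 CNOT7 lysates, and likewise in 5 of 5 M141R, 4 of 5 E247A/Y260A, 3 of 4 D40A and 4 of 5 vector lysates. With at most 1 count in every RIP library, this tally could hardly come out otherwise and adds little to the direction. The call was lost, at adjusted p = 0.0501 to 0.158, when any 1 of the 10 CNOT7 libraries was left out, and DESeq2 gave no adjusted p (unadjusted p = 0.0260).

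In the 4 other constructs Nanos1 was also lower in the precipitate by pooled and scaled counts, and was not called by the edgeR fit with TMM scaling and no block. In E247A/Y260A cells it was at least 2.45-fold lower in the RIP, with 31 input counts against 0 (edgeR adjusted p = 0.0577), or at least 1.51-fold lower with DESeq2's size factors. It passed there with lysate as a block (adjusted p = 0.0437) and with replicate number as a block over all libraries (0.0157), where the CNOT7 values were 0.0146 and 0.00391. The former block called 1005 of 6931 genes lower in E247A/Y260A and 973 in CNOT7 cells, and the latter 1321 and 1409. In M141R cells the RIP to input ratio of pooled counts was 0.111 (95% counting interval 0.00273 to 0.652) from 1 and 40 counts (adjusted p = 0.125), and in D40A cells 0.127 (0.00304 to 0.819) from 1 and 16 (adjusted p = 0.211). In vector cells it was 0.493 (0.0959 to 1.60) from 3 and 28 counts (adjusted p = 0.571), and the fitted log2 ratio of −0.94 became −0.12 without the input of replicate 10. The difference between the CNOT7 and the vector ratio was itself tested and not called (edgeR adjusted p = 1.00), so that Nanos1 is not shown to be depleted more from CNOT7 precipitates than from background. These intervals hold counting error alone, because counts were pooled over replicates and the spread between libraries is left out. The limits leave it out too and take the input count as exact. PCR copies of a molecule were not told apart.

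**Figure D3:**
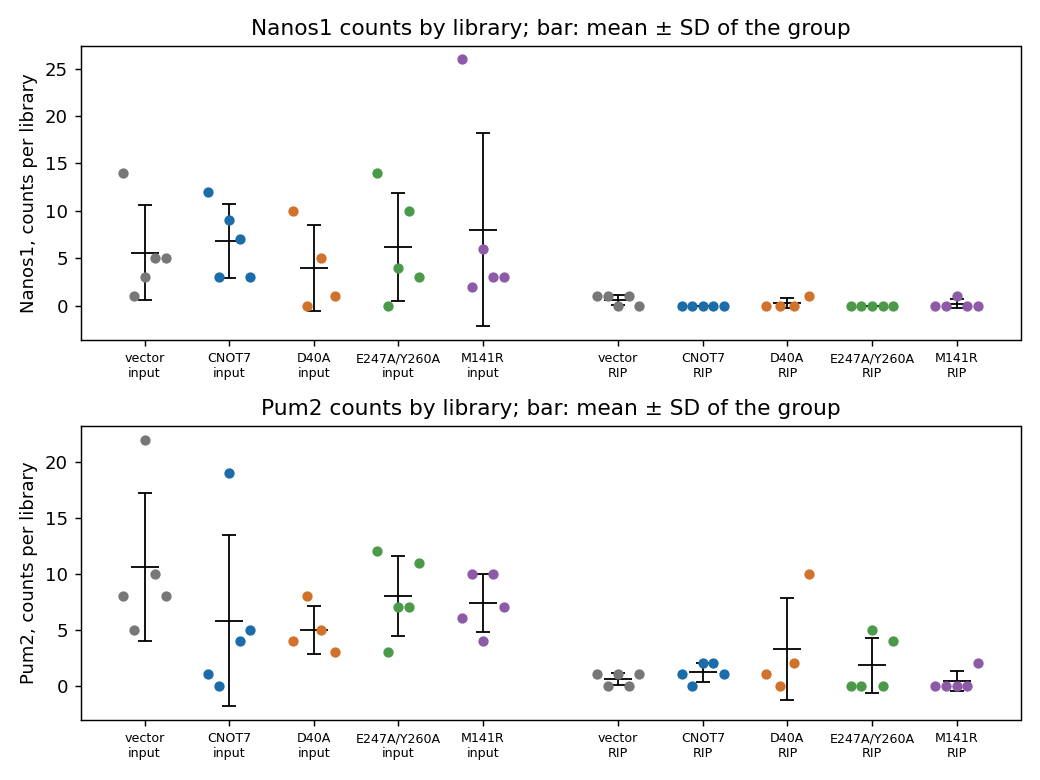
Counts per library of Nanos1 (top) and Pum2 (bottom) in the 10 groups, with black bars at the group mean ± SD. Nanos1 reached 26 counts in an input and never exceeded 1 in a RIP library, and Pum2 reached 22 in an input and 10 in a RIP library.

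Pum2 was above the limit of 3 counts in only some precipitates. In replicates 6 to 10 the vector inputs held 5, 22, 10, 8 and 8 Pum2 counts and the vector RIP libraries 0, 1, 0, 1 and 1. The M141R inputs held 10, 4, 10, 7 and 6 and the M141R RIP libraries 2 in replicate 9 alone. Pum2 was lower in the RIP in 5 of 5 lysates of each, and in scaled values the groups did not overlap in vector cells. In a single vector RIP library, however, 3 counts stand for 4.55 to 6.38 CPM. That is above the vector inputs of replicates 6, 8, 9 and 10 (2.26 to 4.53 CPM) but not of replicate 7 (6.43 CPM). In M141R RIP libraries they stand for 3.71 to 7.12 CPM, against inputs of 1.47 to 4.19 CPM. Where the input is below this limit, a single lysate cannot show a difference. Pum2 passed the filter through the inputs, where it is high. The CNOT7 inputs held 0, 19, 4, 5 and 1 Pum2 counts and the RIP libraries 0, 2, 2, 1 and 1. The D40A inputs held 8, 5, 3 and 4 and the RIP libraries 0, 2, 10 and 1, and the E247A/Y260A inputs 3, 7, 7, 11 and 12 and the RIP libraries 0, 5, 0, 4 and 0. Here inputs and precipitates overlapped.

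The pooled Pum2 ratio was 0.260 (95% counting interval 0.0521 to 0.803) in vector and 0.239 (0.0279 to 0.926) in M141R cells. These intervals also leave out the spread between libraries. The fitted log2 ratios were −0.11 ± 0.80 (SE) in CNOT7, 0.24 ± 0.79 in D40A and −0.19 ± 0.74 in E247A/Y260A cells. By edgeR's quasi-likelihood test the adjusted p-values for Pum2 were 0.158 in vector, 0.153 in M141R and 0.896 to 0.944 in the 3 others. The two-sided exact permutation test on log2 CPM gave p = 0.00794 in vector, the smallest that 5 against 5 allows, and 0.0238 in M141R cells (n = 5 and 5 in both), unadjusted among 58 such tests. No RIP library of these 2 lines held more than 2 Pum2 counts, so that the limit on single libraries given above holds here too. The direction in D40A turned with library size over the minor gene models, on mean log2 CPM and with the replicate block over all libraries, and with library size alone Pum2 was −3.996 there beside a median of all genes of −4.60. That in CNOT7 turned with DESeq2, on mean log2 CPM and with the lysate block, and that in E247A/Y260A with DESeq2.

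**Figure D4:**
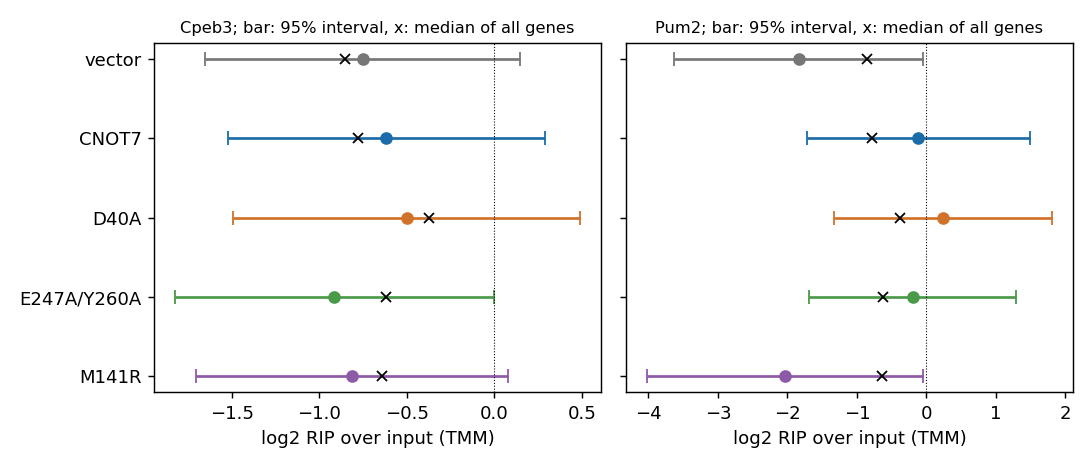
Log2 RIP over input of Cpeb3 (left) and Pum2 (right) by construct, with 95% intervals from the edgeR fit and a cross at the median of all 6931 genes tested. Every interval includes the median of all genes, and all but 3 include 0.

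Cpeb4 and Tob1 did not pass the filter on low counts and are given by their counts. Cpeb4 had 9 input counts and 1 RIP count in vector cells and 3 and 2 in CNOT7 cells. D40A held 5 and 7, E247A/Y260A 4 and 7, and M141R 5 and 6. The 7 Cpeb4 counts of E247A/Y260A RIP all came from replicate 9, and of those in D40A RIP 5 came from replicate 9, while in M141R RIP the counts were 1, 0, 1, 2 and 2. Without a filter the Cpeb4 ratio in E247A/Y260A cells was 2.26 ± 0.94 (SE) on the log2 scale with an adjusted p of 0.195, and without the replicate 9 precipitate no RIP count of Cpeb4 was left there. Tob1 had 1 input count in each of vector, CNOT7 and E247A/Y260A cells, 4 in M141R and 0 in D40A cells, and RIP counts of 1 in D40A and 1 in E247A/Y260A. No library held more than 1 Tob1 count, and no fold is given.

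Between precipitates, Cpeb3 did not differ detectably from vector RIP in any line. The log2 difference was −0.23 (95% interval −1.17 to 0.71) in CNOT7, 0.14 (−0.84 to 1.11) in D40A, −0.44 (−1.39 to 0.50) in E247A/Y260A and 0.12 (−0.81 to 1.05) in M141R cells. Pum2 in D40A RIP was 1.41 (−0.63 to 3.45) and in E247A/Y260A RIP 1.37 (−0.69 to 3.43) above vector RIP. No fold is given for Nanos1 and Tob1, which had at most 1 count in every RIP library. By edgeR's quasi-likelihood test 0 of 6931 genes (0%) were called in the 4 comparisons, where 233, 476, 343 and 346 genes had an unadjusted p under 0.05, no adaptor gene among them. DESeq2 called 0 genes as well. The median of all genes moved by 0.45 in D40A, 0.17 in E247A/Y260A and 0.19 in M141R RIP relative to vector RIP, and by −0.02 in CNOT7 RIP.

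The RIP to input ratio of Cpeb3 differed from that of vector cells by 0.14 (95% interval −1.14 to 1.41) on the log2 scale in CNOT7, 0.25 (−1.08 to 1.59) in D40A, −0.16 (−1.44 to 1.11) in E247A/Y260A and −0.06 (−1.33 to 1.21) in M141R cells. That of Pum2 differed by 1.72 (−0.80 to 4.24), 2.08 (−0.35 to 4.51), 1.65 (−0.73 to 4.02) and −0.20 (−2.72 to 2.32). None of the 6931 genes (0%) was called by edgeR's quasi-likelihood test or by DESeq2, while 219, 341, 234 and 248 genes had an unadjusted p under 0.05. The median difference over all genes was 0.07, 0.44, 0.17 and 0.17. The sign for Cpeb3 in M141R turned with DESeq2 and with both library size scalings, and that in E247A/Y260A with library size alone.

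The mutants were also set against CNOT7 cells, which asks whether the catalytic residue or the contacts with TOB1 and CNOT1 change the adaptor transcripts. In the inputs, Cpeb3 differed by 0.26 (95% interval −0.66 to 1.17) in D40A, 0.09 (−0.77 to 0.95) in E247A/Y260A and 0.55 (−0.31 to 1.41) in M141R cells. In the RIP it differed by 0.37 (−0.61 to 1.35), −0.21 (−1.16 to 0.74) and 0.36 (−0.58 to 1.29). Nanos1 in the inputs was −0.67 (−2.17 to 0.84), −0.41 (−1.77 to 0.94) and −0.28 (−1.61 to 1.06), and Pum2 0.14 (−1.25 to 1.52), 0.53 (−0.72 to 1.79) and 0.34 (−0.92 to 1.60). No adaptor gene had an unadjusted p under 0.05 by edgeR's quasi-likelihood test or was called by DESeq2, and the background was 2 of 6931 genes (0.0289%) in M141R input and 0% in the 5 other comparisons. At an unadjusted p under 0.05 were 71, 39 and 54 genes in the inputs and 348, 226 and 258 in the RIP, and DESeq2 called 4 genes in M141R input and 0 elsewhere. With no filter, edgeR called 31, 48 and 47 of 26899 genes lower in D40A, E247A/Y260A and M141R input and 4 higher in M141R input, again no adaptor gene. All of these comparisons share the CNOT7 libraries.

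Across inputs, Cpeb3 and Nanos1 differed more between replicate numbers than between constructs. This was noticed in the values and then fitted. Cpeb3 was highest in replicate 6 in 5 of 5 constructs, at 71.4 to 118 CPM, and lowest in replicate 10 in 5 of 5, at 5.32 to 33.2 CPM. Nanos1 did the reverse, with 0 to 1.56 CPM in replicate 6, the lowest in 5 of 5, and 4.52 to 7.98 CPM in replicate 10, the highest in 5 of 5. Over the 24 inputs their levels had a Spearman rho of −0.64, as a description over libraries that share replicate numbers and depth. Pum2 showed no such order, with a median of 2.26 CPM in replicate 6 and 2.08 in replicate 10.

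In an edgeR fit of the inputs with construct and replicate number, the replicate term spanned 1.73 on the log2 scale for Cpeb3 (adjusted p = 2.26e-05), 3.65 for Nanos1 (adjusted p = 7.07e-06) and 1.02 for Pum2 (adjusted p = 0.295). Such a term was called for 69.4% of the 3848 genes of that fit, so that the call is the common case. The construct term spanned 0.66 for Cpeb3, 0.93 for Nanos1 and 0.81 for Pum2, and was called for 0% of genes (adjusted p = 0.991 for each of the 3). In the RIP libraries the replicate term of Cpeb3 spanned 0.32 (adjusted p = 0.771), while 74.1% of 1320 genes were called. Each of these fits filtered and scaled its own libraries alone. On the CPM scale used above, the median Cpeb3 RIP level was 41.9 in replicate 6 and 23.3 in replicate 10. There Cpeb3 was highest in replicate 6 in 3 of 5 constructs and lowest in replicate 10 in 3 of 5. What the replicate numbers stand for is not given in the labels, and their part in these levels was not tested further.

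**Figure D5:**
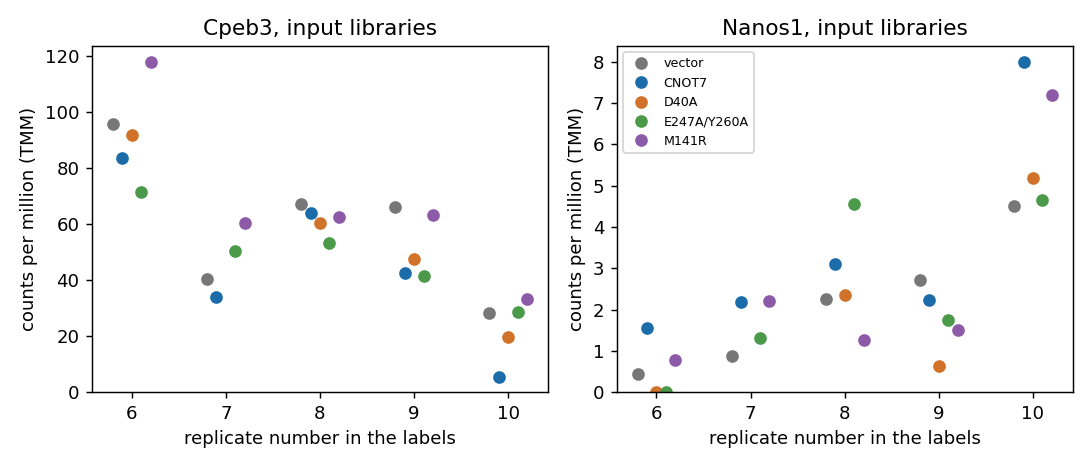
Input levels of Cpeb3 (left) and Nanos1 (right) in CPM after TMM scaling, by the replicate number of the labels, with one colour a construct and points of a number spread sideways. In all 5 constructs Cpeb3 was highest in replicate 6 and lowest in replicate 10, and Nanos1 the reverse.

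The genes whose input levels were most like those of Cpeb3, by Spearman correlation of log2 CPM over the 24 inputs, were Rsph9 (0.96), ENSMUSG00000087240 (0.95), ENSMUSG00000097358 (0.95), Ttc16 (0.95) and Kbtbd4 (0.95). Of 6930 genes compared, 246 exceeded 0.8, and the libraries share the replicate numbers above. Over the 24 RIP libraries the closest were ENSMUSG00000096969 (0.82), Mars (0.80), E230016M11Rik (0.79), ENSMUSG00000029622 (0.78) and Rad9a (0.77), and only the first of these exceeded 0.8.

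Of 38 other recruiters and partners, chosen by role, 37 were in the table and 17 passed the filter. They comprised relatives of the 5 genes, further recruiters of CCR4-NOT, CPSF subunits and cytoplasmic polyadenylation factors, and poly(A)-binding or repressor proteins. Relatives of Cpeb3 and Nanos1, and Tob2, the nearest relative of Tob1, were low, with 19 input counts for Cpeb1, 18 for Cpeb2, 1 for Nanos2, 5 for Nanos3 and 7 for Tob2, and none of these passed the filter. The highest mean input levels of the 38 were those of the anti-proliferative factor Btg1 (7.05 CPM), the polyadenylation factor Fip1l1 (6.70 CPM) and the poly(A)-binding protein Pabpc1 (4.48 CPM).

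In RIP over input, 2 of the 17 were called lower in vector cells, where 12% of all genes were. In E247A/Y260A cells 1 of 17 was called lower (background 9.87%), and 0 in CNOT7 (10.6%), D40A (5.54%) and M141R cells (12%). None was called higher in any construct, where 0.707% to 2.84% of all genes were. Btg1 was lower in vector RIP (−2.73 ± 0.88 SE on the log2 scale, edgeR adjusted p = 0.0318), with counts of 3 in all against 92 in the input. Btg3, its relative, had 38 input counts and 0 RIP counts in vector cells (edgeR adjusted p = 0.0233). Fip1l1 was lower in E247A/Y260A RIP (−1.78 ± 0.61 SE, edgeR adjusted p = 0.0455), with 6 RIP counts against 90 in the input. In these RIP groups no library held more than 1 count of Btg1 or 3 of Fip1l1. The 3 genes passed the filter through the inputs, where they are high, so that a call could hardly be of a higher RIP. The median log2 ratio of the 17 was −0.79 in vector, −0.33 in CNOT7, −0.02 in D40A, −0.61 in E247A/Y260A and −0.19 in M141R cells. In no comparison between constructs was any of the 17 called by edgeR.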

How the data were processed

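RNA of 24 inputs and 24 precipitates of 4T1 cells was analysed. The authors deposited raw whole-number read counts per Ensembl gene for the 48 libraries, without normalization. The submitters' processing notes name BWA, HTSeq and mm9, with no versions, and the strand of counting is not given in the sources used here. Of 26899 genes 8719 carry no symbol, and of the sample columns 0 went unused.

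From these counts, genes were filtered with filterByExpr (6931 kept), scaled with TMM and tested two-sided by quasi-likelihood (edgeR 4.0.16 with limma 3.58.1, R 4.3.3), all 10 groups in one fit, with Benjamini-Hochberg adjustment over all genes tested and a threshold of 0.05. Genes at or under 3 counts in every library of both groups were given no fold, and log2 CPM used a prior count of 2. The code was tested on simulated data. The 5 genes are named in every comparison. Of the lists, the genes called in any comparison, the 3 with the highest input level and the 5 most like Cpeb3 are named. The 5 genes and the lists were chosen with earlier results of these data known. Of the lists, Ago2, Krt7 and Col1a1 were matched by identifier and Samd4b was not matched.

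Alternatives were DESeq2 1.42.0, library size alone, library size over gene models under 1% of the RIP counts, no filter, only the groups compared, the replicate number as a block, exact permutation and each library left out. Blocks over all libraries and the replicate terms were added after the data were seen. Same-numbered inputs of 2 constructs deviated together from their group means (lowest correlation 0.152 over all numbers and the 7 pairs of constructs that were compared), and RIP and input of a number come from one lysate per the protocol, although the correlation of their deviations fell to 0.00917. Annotation and 3'UTRs are from GENCODE M21, read with Python 3.11.15, numpy 2.4.6 and matplotlib 3.10.9, and 26555 identifiers matched it.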

Additional observations from a re-analysis of the deposited data

Results flagged for a closer look

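The 22 groups checked were those of Cpeb3, Nanos1 and Pum2 with more than 3 counts in some library. Of these, 2 held a sample far from the others, where chance gives about 1 in 20. Cpeb4, under the filter, was not among them, although its 7 counts in E247A/Y260A RIP all came from replicate 9 (8.97 CPM). Nanos1 was 7.98 CPM (12 counts) in the CNOT7 input of replicate 10, and the next highest of the 5 CNOT7 inputs was 3.11 CPM. Nanos1 was 7.20 CPM (26 counts) in the M141R input of replicate 10, and the next highest of the 5 M141R inputs was 2.20 CPM. Both carry the replicate number in which Nanos1 was highest in every construct.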

How the results depend on the processing

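Of the alternatives, library size alone changed most. RIP over input of Cpeb3 was then −5.34, −4.91, −4.91, −5.28 and −5.08 on the log2 scale in vector, CNOT7, D40A, E247A/Y260A and M141R cells, that of Nanos1 −5.23 in vector, −6.26 in D40A, −7.44 in E247A/Y260A and −6.44 in M141R cells, that of Pum2 −6.14 in vector, −4.29 in CNOT7, −4.40 in E247A/Y260A and −5.87 in M141R cells, and all of these were called. That of Pum2 in D40A cells was −3.996, turned and called, where the median of all genes was −4.60, and its sign turned also over the minor gene models (−0.082), on mean log2 CPM (−0.097) and with the replicate block over all libraries (−0.056). With DESeq2 Cpeb3 was 0.19 in CNOT7, 0.12 in D40A and 0.044 in M141R cells and Pum2 0.47 in E247A/Y260A cells. With only the groups compared Cpeb3 was 0.063 in CNOT7 and 0.13 in D40A cells, and with the replicate block in that fit 0.26 and 0.064. Pum2 in CNOT7 cells was 0.081 on mean log2 CPM and 0.076 with lysate as the replicate block. Nanos1 in E247A/Y260A cells was called over the minor gene models (−5.09, adjusted p = 0.0311). The exact permutation test, 1 of 58 and unadjusted, gave p = 0.0476 there (−1.31 on mean log2 CPM) and 0.0317 in M141R cells (−1.13). No RIP library held more than 1 Nanos1 count, so that the limit on single libraries holds for these tests too. The cause of these changes was not tested. Nanos1 had 0 RIP counts in CNOT7 and E247A/Y260A cells, so that its fitted values there, here and below, depend on the prior count and are no bounds.

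The pairing of RIP and input by lysate, added after the data were seen, gave calls for Cpeb3 (−0.97) and Nanos1 (−4.66) in E247A/Y260A cells. The replicate block over all libraries, also added, gave them for the same genes there (−0.94 and −4.71) and for Cpeb3 in M141R cells (−0.78). Both changed no other call among the adaptor genes they tested. The replicate block of the groups compared gave 33 values and changed no call among them, but Nanos1 did not pass its filter in RIP over input, so that the call in CNOT7 cells was not tested there. Genes called lower in RIP over input numbered 384 to 831 by construct, 666 to 1122 with lysate as a block, 997 to 1509 with the block over all libraries, 46 to 295 with only the groups compared, 813 to 1688 over the minor gene models, 152 to 235 with DESeq2, 235 to 486 with no filter and 6676 to 6876 with library size alone. In D40A over vector input the replicate block of the groups compared called 14 genes higher and 1 lower, against 0.

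Between constructs no alternative gave a call for the adaptor genes it tested, and these signs turned. With library size alone Cpeb3 was 0.042 in CNOT7 over vector RIP, its ratio differed from vector by 0.065 in E247A/Y260A and 0.26 in M141R cells, that of Pum2 by 0.27 in M141R cells, and Pum2 was −0.016 in D40A over CNOT7 input. Over the minor gene models the last was −0.0064, and the Cpeb3 ratio in M141R 0.089. With DESeq2 that ratio differed by 0.12, that of Pum2 by 0.11, and Nanos1 was 0.11 in D40A over vector input. Cpeb3 in D40A over vector RIP was −0.041 on mean log2 CPM and −0.047 with the replicate block over all libraries, and Pum2 in E247A/Y260A over CNOT7 RIP was −0.25 on mean log2 CPM.

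Leaving out 1 library at a time also changed the genes passing the filter (5658 to 8916). Nanos1 in CNOT7 RIP over input then ran from −5.49 to −4.81 and lost its call each time, and no other call changed. Signs turned in 67 of the values so obtained, and genes at or under 3 counts in every library left were given none. In RIP over input Cpeb3 ran from −0.96 to 0.15 in D40A, Pum2 from −0.27 to 0.85 in CNOT7, −0.34 to 0.72 in D40A and −0.87 to 0.36 in E247A/Y260A cells. Without turning, Nanos1 ran from −1.11 to −0.12 in vector cells, Pum2 ran from −5.16 to −1.51 and Nanos1 from −5.08 to −1.66 in M141R, and Nanos1 from −4.68 to −1.68 in D40A cells, and the low ends of the last 3 leave 0 RIP counts. In input over vector Cpeb3 ran from −0.50 to 0.18 in D40A and −0.13 to 0.43 in M141R, Nanos1 from −0.99 to 0.34 in D40A, −0.17 to 0.61 in E247A/Y260A and −0.53 to 0.76 in M141R, and Cpeb4 from −0.36 to 0.22 in D40A cells. In RIP over vector Cpeb3 ran from −0.40 to 0.33 in D40A and −0.040 to 0.24 in M141R cells. The ratio differed from vector by −0.12 to 0.50 in CNOT7, −0.29 to 0.60 in D40A and −0.35 to 0.22 in M141R cells for Cpeb3, by −3.46 to 0.19 in M141R cells for Pum2, and by −1.39 to 4.47 in CNOT7 and −1.59 to 5.48 in E247A/Y260A cells for Cpeb4. In input over CNOT7 Cpeb3 ran from −0.12 to 0.63 in D40A and −0.19 to 0.45 in E247A/Y260A, Nanos1 from −0.76 to 0.074 in E247A/Y260A and −1.12 to 0.22 in M141R, and Pum2 from −0.12 to 0.72 in D40A cells. In RIP over CNOT7 Cpeb3 ran from −0.18 to 0.54 in D40A and −0.44 to 0.0013 in E247A/Y260A, and Pum2 from −0.37 to 0.84 in E247A/Y260A cells. In the RIP, Nanos1, Pum2, Cpeb4 and Tob1 had a count in 13 of 24 libraries at most, and counting error is large there.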
